A study of Gallus gallus with 2 samples.

Results

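The whole cerebellum of the chick embryo was compared between embryonic day 8 (E8) and embryonic day 9 (E9), across all genes and with every deposited cell of these stages kept. The rule took all cells that the cell table assigns to either stage, which gave 2478 cells at E8 and 2576 at E9, or 5054 of the 15190 cells of the series. Both groups were wild-type chick cerebella, freshly dissected, with tissue pooled and dissociated, and no treatment is given. Neither the number nor the sex of the embryos is given in the sources used here. Polyadenylated RNA was sequenced from single cells with the Evercode WT Mini kit, which labels a cell by the wells it passes through and every captured transcript by a unique molecular identifier (UMI). Each stage filled 3 first-round wells, and the labels list 2 sublibraries that split the barcoded cells again.

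In the avian cerebellum these days lie in the period when granule cell precursors, the source of the most numerous neurons of the cerebellum, spread over the outer surface and divide there. Purkinje cells, the inhibitory output neurons of the cortex, were born earlier and are settling into their layer, while radial glia line the ventricle and give rise to further GABAergic neurons and glia. Sonic hedgehog from Purkinje cells is a known mitogen of the granule precursors, and thyroid hormone is a known timer of cerebellar maturation.

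Levels are the UMIs of a gene scaled to all UMIs of the cells summed (CPM, the usual depth-scaled count). The wells held 807 to 902 cells and 2877798 to 3872652 UMIs each, with a median per cell of 3310 UMIs at E8 and 3172 at E9. The wells and sublibraries of a stage are splits of 1 pool of tissue, so no test between stages was possible, stage and pool cannot be told apart, and the exact 95% intervals given cover counting error only. In sums over a tissue, fewer cells of a type and less RNA per cell cannot be told apart. Of the barcodes, 171 occurred in both sublibraries, and no doublet caller was run, so doublets must be taken as present. The pools differed in transcripts tied to the female-specific chromosome W: 43 entries of the gene table that follow W-linked genes in E7 cells summed to 46.4 CPM at E8 and 1152 CPM at E9. Results on chromosomes W and Z are therefore given apart, and the value in cells with no UMI of these entries is given for the Z genes as a set and for some named genes and lists. Where that value is not printed, it may still differ from the result given.

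The stages were close across most genes. Over the 10942 genes with 100 or more UMIs, the median log2 ratio of E9 over E8 was 0.11, and 90% of the genes lay between -0.40 and 0.73. A ratio of the size of this median marks no difference from the bulk of genes, and ratios below are to be read against it. Of the 6689 genes that also reached 20 CPM at the higher stage, 61 (0.912%) were at least 2-fold higher at E9 and 6 (0.0897%) at least 2-fold lower. Scaling by trimmed mean of M values moved the median to 0.02 and gave 42 higher and 12 lower. The number higher came to 106 without the third E8 well and to 94 without the first E9 well, and the number lower to 11 without the first E8 well and to 10 without the second E9 well. Among the 61 higher entries, 13 were W-coupled or on W, 15 others had no gene name, 1 was mitochondrial and 32 were named genes outside W.

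**Figure D1:**
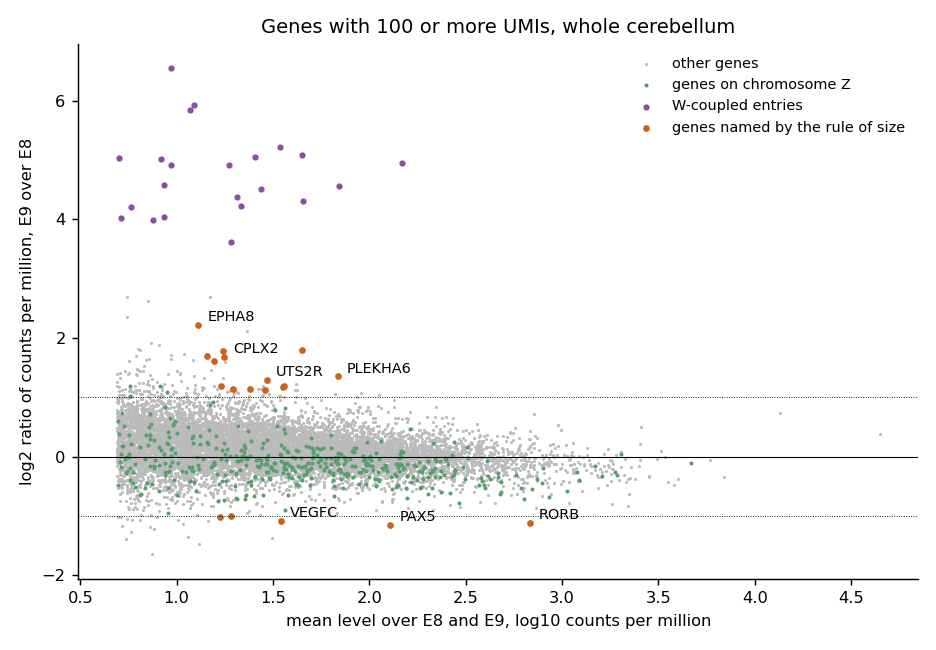
Each point is 1 gene with 100 or more UMIs, with its mean level over E8 and E9 on the x axis (log10 CPM) and the log2 ratio of E9 over E8 on the y axis. Dotted lines mark 2-fold. The W-coupled entries form a separate band far above the rest, chromosome Z genes sit mostly below 0, and RORB stands out as an abundant gene below the lower line.

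The largest ratio among named genes outside W belonged to EPHA8, an ephrin-A receptor that guides axons by cell contact (ENSGALG00010016929; chromosome 21, 6099437 to 6157522 of GRCg7b). EPHA8 stood at 4.43, 3.85 and 5.53 CPM in the E8 wells and at 20.8, 18.4 and 24.3 CPM in the E9 wells. Every E9 well lay above every E8 well, and the summed levels of 4.58 and 21.3 CPM gave a log2 ratio of 2.22 (interval 1.75 to 2.71). It came to 1.61 when each cluster of cells, described below, was given the same share at both stages. EPHA8 was low at the earlier stages, at 1.08 CPM at E6 and 1.26 CPM at E7. The rule for naming genes required wells that do not overlap and the same direction in both sublibraries, so for the 14 genes of largest ratio and the 5 lower ones these are a condition of choice. Across all 10942 genes, 2291 (20.9%) had every E9 well above every E8 well and 1085 (9.92%) had every E9 well below.

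Several of the other genes in this group act at synapses or mark neuron types. CPLX2, a complexin that controls vesicle fusion, read 6.64, 6.61 and 12 CPM in the E8 wells and 19.1, 29.0 and 30.5 CPM in the E9 wells, a log2 ratio of 1.68 (1.32 to 2.05). CALB2 encodes calretinin, a calcium buffer of many interneurons and of granule cells in birds and mammals. Its wells read 6.32, 9.36 and 7.07 CPM at E8 against 26.8, 22 and 22.5 CPM at E9, a log2 ratio of 1.62 (1.24 to 2.01). SEZ6, a membrane protein of dendrites and synapses, stood at 10.4 and 23.7 CPM, a log2 ratio of 1.18. With cluster shares held equal the log2 ratios of CPLX2, CALB2 and SEZ6 came to 1.32, 1.23 and 1.00. At E7 CPLX2 had stood at 28 CPM, with an interval that overlaps that of E9, and SEZ6 at 54.1 CPM, above both later stages.

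Receptors and their adaptors formed another part. UTS2R, the receptor of the peptide urotensin, stood at 22.1, 15.1 and 13.8 CPM in the E8 wells and 39.6, 45.2 and 39.8 CPM in the E9 wells, a log2 ratio of 1.30 (1.04 to 1.56). PDGFRA, the platelet-derived growth factor receptor known as a mark of oligodendrocyte precursors, stood at 18.0 CPM at E8 and 39.3 CPM at E9, a log2 ratio of 1.12 (0.87 to 1.39). TRAF4, an adaptor of the tumour necrosis factor receptor-associated factors, stood at 12.2 and 26.8 CPM, a log2 ratio of 1.13, and had stood at 28.1 CPM at E6 and 31.0 CPM at E7. UTS2R and PDGFRA were among the leading genes of 1 cluster of granule-lineage-like cells described below, whose 10 leading genes held 0 markers of any cell type list, and PDGFRA itself is on the oligodendrocyte list. With cluster shares held equal between stages their log2 ratios came to 0.53 and 0.38, and that of TRAF4 to 0.66. Within clusters that had at least 20 cells per stage and 10 UMIs of PDGFRA, PDGFRA was higher at E9 in 4 of 10.

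Matrix and membrane genes were also present. COL13A1, a collagen that spans the cell membrane, read 10.4, 4.95 and 5.22 CPM in the E8 wells and 14.6, 21.2 and 27.9 CPM in the E9 wells, so the closest wells lay near each other. Its summed ratio was 1.69 (1.30 to 2.11) on the log2 scale. CSGALNACT1, which starts the chains of chondroitin sulfate, stood at 15 CPM at E8 and 33.0 CPM at E9, against 0.649 CPM at E6 and 2.90 CPM at E7. Its log2 ratio of 1.13 came to 0.74 in cells with no W-coupled UMI. PLEKHA6, a pleckstrin-homology protein of cell junctions, was the most abundant of the 14 and read 28.5, 38.0 and 49.5 CPM at E8 against 84.8, 94.3 and 113 CPM at E9. The log2 ratio of PLEKHA6 was 1.35 (1.18 to 1.52), and it was also higher at E6, at 137 CPM, than at E8. ANXA6, a calcium-dependent membrane-binding annexin, stood at 22 and 50.3 CPM, a log2 ratio of 1.19. At E7 ANXA6 had stood at 49.7 CPM, with an interval that overlaps that of E9.

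The last genes of the group have nuclear or motor roles. ZNF692, a zinc finger protein, stood at 7.86 CPM at E8 and 27.1 CPM at E9, a log2 ratio of 1.78 (1.42 to 2.16). U4 is the name of a small nuclear RNA of the spliceosome, and the entry is 1 of several with this symbol, so reads may be split between copies. The U4 wells were widely spread, at 16.8, 34.1 and 7.68 CPM at E8 and 72.3, 98.5 and 41.6 CPM at E9, with 322 CPM at E7. DNAH17, an axonemal dynein heavy chain, stood at 21.9 and 49.2 CPM, and its log2 ratio was 1.71 in sublibrary 1 and 0.63 in sublibrary 2.

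**Figure D2:**
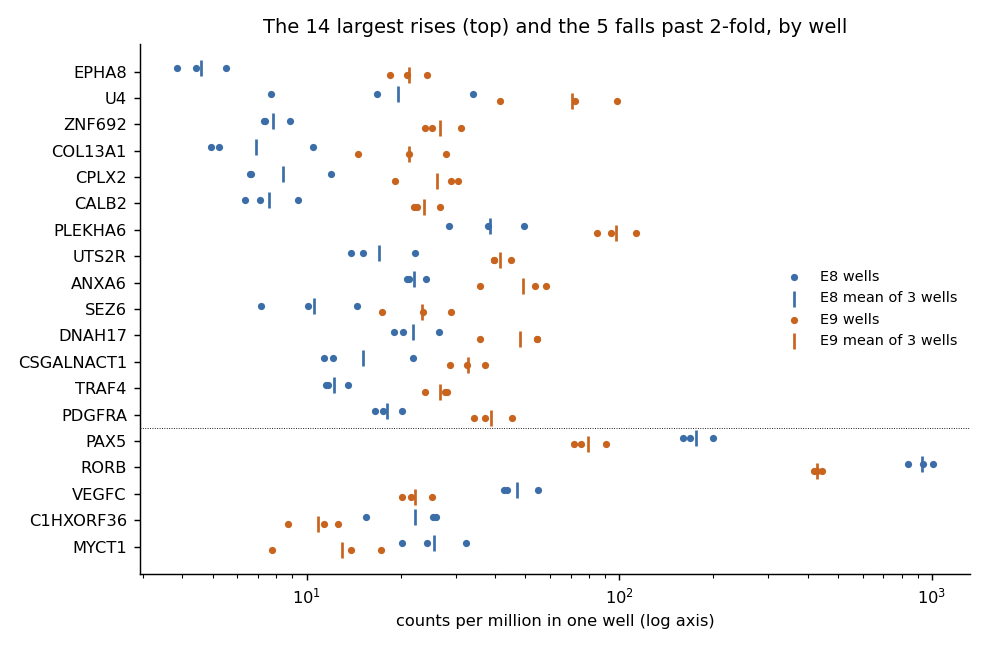
Levels of the 14 named genes with the largest ratio (above the dotted line) and of the 5 that were at least 2-fold lower (below it), with each well as a point and the mean of 3 wells as a bar, on a log axis of CPM. EPHA8, ZNF692 and PAX5 show tight wells and a clear gap, whereas U4 and COL13A1 show E8 and E9 wells close to each other.

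In the other direction 5 named genes passed the rule, beside 1 entry without a name, ENSGALG00010008962, at 45.1 CPM at E8 and 17.3 CPM at E9. With cluster shares held equal that entry was the one still at least 2-fold lower, and the named genes came to -0.73 for PAX5, -0.84 for RORB, -0.91 for VEGFC, -0.70 for C1HXORF36 and -0.67 for MYCT1 on the log2 scale. RORB, an orphan nuclear receptor related to RORA, was the most abundant of them, at 1006, 939 and 839 CPM in the E8 wells and 444, 418 and 428 CPM in the E9 wells. Its log2 ratio was -1.11 (-1.16 to -1.06), and E8 was its highest stage, with 202 CPM at E6 and 663 CPM at E7. PAX5, a transcription factor of the midbrain-hindbrain boundary, read 168, 199 and 160 CPM at E8 and 71.6, 90.9 and 75.7 CPM at E9, a log2 ratio of -1.15 (-1.27 to -1.03). PAX5 had its highest level at E6, at 639 CPM, and was lower at each later stage. Both genes lie on chromosome Z, RORB (ENSGALG00010015250) at 37158099 to 37295153 and PAX5 (ENSGALG00010001212) at 85810944 to 85926014, and in cells with no W-coupled UMI their log2 ratios were -0.99 and -0.97.

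The other lower genes are known from blood vessels. VEGFC, a growth factor of lymphatic and blood vessel endothelium, read 42.7, 43.8 and 55.0 CPM in the E8 wells and 21.5, 25.1 and 20.1 CPM in the E9 wells, a log2 ratio of -1.08 (-1.31 to -0.85). MYCT1, a gene of endothelial cells, stood at 25.6 and 12.8 CPM and just reached 2-fold, with a log2 ratio of -0.60 in sublibrary 1 and -1.35 in sublibrary 2. C1HXORF36 stood at 22.4 and 11 CPM, with log2 ratios of -0.35 and -1.70 in the sublibraries. MYCT1 and C1HXORF36 had nearly all their UMIs in 1 cluster of 50 cells at E8 and 38 cells at E9, described below as endothelium-like, so few cells lie behind them. By level over both stages, MYCT1 was highest in a microglia-like cluster of 9 and 10 cells, at 592 CPM. In cells with no W-coupled UMI the log2 ratio of VEGFC was -1.38 and that of MYCT1 -1.32. In cells with no UMI of a gene placed on W the log2 ratio was -0.08 for MYCT1 and -0.25 for C1HXORF36. That last filter rested mostly on NEDD4L, which is placed on W by symbol but is not among the W-coupled entries. It kept 1065 cells at E8 and 1093 at E9, against 2102 and 1521 with no W-coupled UMI. The endothelium-like cluster was also deep (median 13126.5 UMIs a cell, against 3310 and 3172 over all cells), and whether it holds doublets was not tested.

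To see where in the tissue these levels came from, the E8 and E9 cells were clustered together without W, W-coupled and mitochondrial genes, which gave 23 clusters, of which 15 could be named from marker lists. Granule-lineage-like cells numbered 320 at E8 and 625 at E9, Purkinje-like cells 430 and 257, radial-progenitor-like cells 597 and 497, and GABAergic-interneuron-like cells 120 and 177. Unnamed clusters held 816 and 804 cells. One of them, of 55 and 75 cells, scored highest on the Purkinje list, at 0.714 against 0.636 for the next, and had the highest FOXP2 level of all clusters, at 9395 CPM. Another, of 181 and 226 cells, scored highest on the granule lineage list and had the highest PAX6 level, at 192 CPM. An unnamed cluster of 94 and 118 cells also scored highest on the granule lineage list, at 0.739 against 0.632. Unnamed clusters of 173 and 74 cells and of 49 and 33 cells scored 0.741 and 0.713 on the Purkinje list. For both, only the GABAergic interneuron list scored higher, at 0.817 and 0.773. Levels of the Purkinje-like and granule-lineage-like classes leave all these clusters out. The genes that define clusters include genes that differ between the stages, such as EPHA8, UTS2R, CSGALNACT1 and EBF2, so these numbers of cells are the basis of the levels and not a measure of cell shares.

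EPHA8 was highest in granule-lineage-like cells, which held 43.5% of its UMIs at E8 and 74.5% at E9, at 18.2 CPM (11.1 to 28.1) and 77.7 CPM (66.3 to 90.6). EPHA8 stood at 2.07 and 2.51 CPM in endothelium-like cells. CPLX2 was also highest there, at 21.8 CPM (14 to 32.5) and 73.9 CPM (62.8 to 86.5) in granule-lineage-like cells. The intervals of the stages did not overlap within this class for either gene, but the class is made of 3 clusters in unequal parts, and the one led by EPHA8 held 92 of its 320 cells at E8 and 250 of 625 at E9. Of 4 clusters with 10 or more UMIs of EPHA8, 3 were higher at E9 and 1 lower, and for CPLX2 all 10 were higher. COL13A1 stood in the unnamed clusters at 4.34 CPM at E8 and 38.7 CPM (32.1 to 46.2) at E9, beside 6.77 and 21.9 CPM over all cells. By cluster, its level over both stages was highest in the microglia-like one, at 249 CPM, with 9 cells at E8 and 10 at E9. COL13A1 was also among the leading genes of 1 of the unnamed clusters, together with OTX2, a member of the midbrain and isthmus list. That cluster scored highest on the granule lineage list, at 0.724 against 0.470 for the next list. It was left unnamed because its 10 leading genes held 1 marker of another list and 0 of the granule lineage. CSGALNACT1 differed in radial-progenitor-like cells, at 38.7 and 141 CPM, and stood at 54.9 and 54.0 CPM in endothelium-like cells. DNAH17 was highest in endothelium-like cells, at 137 and 396 CPM.

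Other genes were higher at E9 in many clusters at once. U4 was higher at E9 in all 18 clusters with at least 20 cells per stage and 10 UMIs of the gene, ANXA6 in all 18, PLEKHA6 in all 17 and ZNF692 in all 15. With cluster shares held equal between stages, ZNF692 kept a log2 ratio of 1.85 and U4 of 1.88. These genes were named for their summed ratio, and the clusters split the same pools, so such counts follow in part from the choice. Clusters were not counted in this way over all genes. The same holds for the other counts of clusters given here for named genes.

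Of the lower genes, RORB was highest in Purkinje-like cells among the named classes, with 61.7% of its UMIs there at E8 and 46.7% at E9, at 3201 CPM (3119 to 3285) at E8 and 1663 CPM (1592 to 1736) at E9. In radial-progenitor-like cells RORB stood at 183 and 178 CPM, with intervals that overlap. PAX5 stood at 400.3 CPM (372 to 431) and 223 CPM (198 to 251) in Purkinje-like cells and at 153 and 107 CPM in radial-progenitor-like cells. By cluster, PAX5 was highest in an unnamed one, at 494 CPM over both stages. That cluster held 173 cells at E8 and 74 at E9. VEGFC had its UMIs in radial-progenitor-like cells, at 114 CPM and 59.3 CPM (48.3 to 72), and in endothelium-like cells, at 165 and 77.9 CPM. In both classes the intervals of the stages did not overlap.

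**Figure D3:**
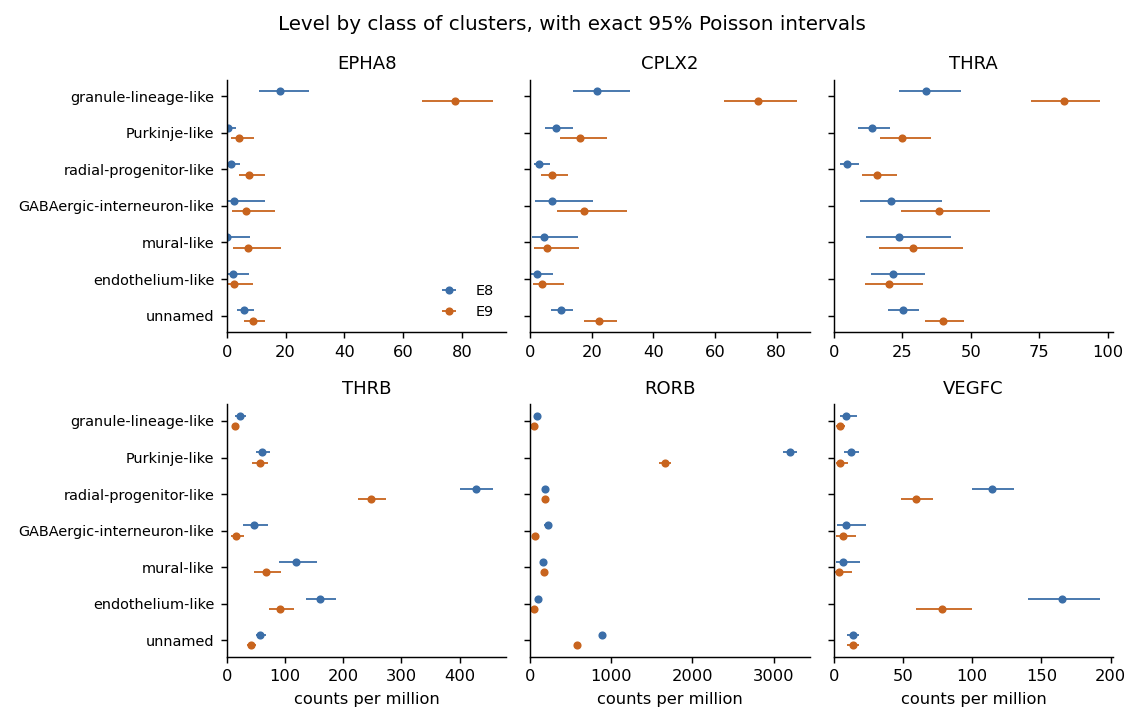
Levels of EPHA8, CPLX2, THRA, THRB, RORB and VEGFC in CPM within 7 classes of clusters, at E8 and E9, with exact 95% Poisson intervals that cover counting error only. EPHA8, CPLX2 and THRA have their highest E9 level in granule-lineage-like cells, RORB is lower at E9 in Purkinje-like cells and level in radial-progenitor-like cells, and THRB and VEGFC are lower in radial-progenitor-like and endothelium-like cells.

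Lists of genes were described by a lower threshold of 1.5-fold, which 971 of all 10942 genes (8.87%) passed as higher and 189 (1.73%) as lower. Of 16 measured genes of the granule lineage, 5 were at least 1.5-fold higher and 0 lower, and the list's median log2 ratio was 0.39 beside 0.11 over all genes. NEUROD1, a transcription factor of differentiating granule cells, read 14.9, 17.9 and 22.1 CPM in the E8 wells and 40.3, 34.6 and 37.4 CPM in the E9 wells, a log2 ratio of 1.02 (0.77 to 1.29). CNTN2, an adhesion molecule of young granule axons, stood at 92.6 and 156 CPM, and PAX6, a transcription factor of the rhombic lip lineage, at 51.7 and 85.4 CPM. CNTN2 had been higher before, at 377 CPM at E6 and 492 CPM at E7. At these earlier stages NEUROD1 stood at 3.24 and 26.7 CPM and PAX6 at 15.5 and 42.5 CPM, below their E9 levels. The summed level of the list was 1589 CPM at E6, 1735 CPM at E7, 1115 CPM at E8 and 1307 CPM at E9. MEIS1, the most abundant member, stood at 616 and 619 CPM, a ratio whose sign turned with the scaling. With cluster shares held equal the list's median was 0.19, and CNTN2 and PAX6, at log2 ratios of 0.43 and 0.41, were no longer past 1.5-fold. Within granule-lineage-like cells NEUROD1 stood at 59.1 CPM (45.6 to 75.4) at E8 and 90.0 CPM (77.7 to 104) at E9.

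Purkinje genes were mostly lower at E9, by small ratios. Of 18 measured genes 16 had a ratio below 0, with a median log2 ratio of -0.29. At least 1.5-fold lower were 6 (33.3%) and higher 1 (5.56%), beside 1.73% and 8.87% of all genes. The summed level of the list was 12572 to 13616 CPM over the E8 wells and 9515 to 9771 CPM over the E9 wells. FOXP2, a forkhead factor of Purkinje cells, was the most abundant, at 2956, 2555 and 2588 CPM at E8 and 1665, 1825 and 1730 CPM at E9, a log2 ratio of -0.63 (-0.65 to -0.60). EBF2, a factor of Purkinje subsets, stood at 946 and 517 CPM, and ESRRB, an orphan nuclear receptor, at 145 and 87.0 CPM. SKOR2, a repressor that marks Purkinje precursors, stood at 47.3 and 25.4 CPM and lies on chromosome Z. Its log2 ratio of -0.89 came to -0.81 in cells with no W-coupled UMI. With cluster shares held equal, the list's median was -0.21, and the log2 ratios of FOXP2, EBF2, ESRRB and SKOR2 were -0.34, -0.46, -0.41 and -0.49, none of them past 1.5-fold. LHX5, a factor of early Purkinje cells, was the member at least 1.5-fold higher, at 5.07 and 8.8 CPM, a level at which its wells overlapped.

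Markers of other cell types moved less or rested on few cells. Of 15 radial progenitor genes, 0 passed 1.5-fold in either direction, with a median of -0.02, although SLC1A3, a glial glutamate transporter, stood at 457 and 327 CPM and lies on Z. The log2 ratio of SLC1A3 was -0.49 and came to -0.41 in cells with no W-coupled UMI. Of 7 GABAergic interneuron genes 0 passed, and GAD2, an enzyme of GABA synthesis that Purkinje cells share, stood at 278 and 207 CPM. Of 4 genes of glutamatergic nuclei, the vesicular glutamate transporter SLC17A6 was higher, with 83.5 and 131 CPM and a log2 ratio of 0.65 that came to 0.21 with cluster shares held equal, while MEIS2 stood at 187 and 128 CPM. The 4 midbrain and isthmus genes and the 8 mural genes had 0 past 1.5-fold, with medians of -0.22 and 0.08, the latter below 0 under both other scalings and the former -0.56 in cells with no W-coupled UMI, and the 3 roof plate genes had 0 with a median of 0.35.

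Some vascular and blood genes differed between the sublibraries. Of 10 endothelial genes 2 (20%) were at least 1.5-fold lower and 1 (10%) higher, beside 1.73% and 8.87% of all genes. The median was -0.38. The summed level ranged from 856 to 1248 CPM over the E8 wells and from 703 to 1041 CPM over the E9 wells, which overlap. The list's median was -0.79 in cells with no W-coupled UMI and turned to 0.40 in cells with no UMI of a gene placed on W. The latter filter rested mostly on NEDD4L, as said above. EGFL7, a secreted endothelial protein, had a log2 ratio of -0.03 in sublibrary 1 and -1.09 in sublibrary 2. All 5 measured erythroid genes had a ratio below 0, and 3 (60%) were at least 1.5-fold lower, beside 1.73% of all genes. Their median was -0.67 and came to 0.11 in sublibrary 2. Haemoglobin HBA1 gave -2.03 and 0.43 in the sublibraries, so no direction was held for blood genes. CSF1R, the receptor that microglia need, stood at 16.1 and 24.6 CPM, from 162 and 254 UMIs. By cluster, the level of CSF1R over both stages was highest in the microglia-like one, at 1247 CPM. The summed level of the microglia list was 3840 and 2903 CPM there, from 57 and 50 UMIs. In mural-like cells that list stood at 286 and 362 CPM, from 132 and 200 UMIs.

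Of 3 oligodendrocyte genes 2 (66.7%) were at least 1.5-fold higher, beside 8.87% of all genes. MBP, a myelin protein, read 41.4, 46.8 and 40.3 CPM at E8 and 83.1, 89.2 and 93.2 CPM at E9, a log2 ratio of 1.05 (0.88 to 1.22). PDGFRA was the other member past 1.5-fold, and CSPG4 stood at 32.1 and 34.7 CPM. By cluster, the level of CSPG4 over both stages was highest in the mural-like one, at 573 CPM, where CSPG4 was among the 10 leading genes. That of MBP was highest in an unnamed cluster of 181 and 226 cells, at 276 CPM. Neither MBP nor PDGFRA was mainly in oligodendrocyte-lineage-like cells, of which there were 6 at E8 and 34 at E9. MBP stood at 166 and 226 CPM in granule-lineage-like cells and at 51.2 and 92.3 CPM in the unnamed clusters, and PDGFRA at 85.5 and 127 CPM in granule-lineage-like cells. Summed over both stages, the level of PDGFRA was highest in the oligodendrocyte-lineage-like cluster, at 445 CPM.

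Genes of mitosis had ratios above 0 with few exceptions, most of them small. Of 40 measured genes 39 had a ratio above 0 and 34 a ratio above the median of all genes. At least 1.5-fold higher were 6 (15%), beside 8.87% of all genes, and 0 were lower. For 22 every E9 well lay above every E8 well, beside 20.9% of all genes. The median was 0.30, and the summed level was 1810 to 1979 CPM over the E8 wells and 2261 to 2474 CPM over the E9 wells. KIF20A, a kinesin of the dividing cell's midzone, read 19.6, 18.7 and 19.4 CPM at E8 and 24.3, 35.7 and 33.6 CPM at E9, a log2 ratio of 0.72. BUB1, a kinase of the spindle checkpoint, stood at 21.9 and 35.1 CPM, and CENPI, a centromere protein, at 20.1 and 31.2 CPM. The summed level of the list was 3285 and 3715 CPM in granule-lineage-like cells and 3183 and 3879 CPM in radial-progenitor-like cells. In Purkinje-like cells it stood at 637 and 894 CPM, a log2 ratio of 0.49 (0.37 to 0.61), against 0.18 and 0.29 in the former classes. In the unnamed clusters it stood at 1421 and 1632 CPM. It was lower at E9 in mural-like cells, at 3439 and 3004 CPM, in endothelium-like cells, at 1573 and 1420 CPM, and in oligodendrocyte-lineage-like cells, at 4970 and 3635 CPM. With cluster shares held equal the median was 0.19. Of 23 genes of DNA replication 1 (4.35%) was at least 1.5-fold higher, beside 8.87% of all genes, and 0 lower, with a median of 0.26. The summed level of the replication genes stood at 986 and 991 CPM, and POLA1, the most abundant, at 489 and 406 CPM.

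The hedgehog list had a median of -0.22, which came to -0.10 with cluster shares held equal. Of its 15 measured genes 2 (13.3%) were at least 1.5-fold lower, beside 1.73% of all genes, and 0 higher. HHIP, a membrane protein that binds the ligand and dampens the pathway, read 94.2, 76.0 and 93.1 CPM at E8 and 52.1, 55.8 and 50.1 CPM at E9, a log2 ratio of -0.73 (-0.89 to -0.57). The ligand SHH was the other, at 8.76 and 4.84 CPM, with wells that overlapped. The receptor PTCH1, which the pathway switches on, stood at 228 and 196 CPM and lies on Z, and the effector GLI3 at 688 and 495 CPM. In radial-progenitor-like cells the summed level of the list was 5493 CPM at E8 and 4654 CPM at E9, and in granule-lineage-like cells 1442 and 1345 CPM. In Purkinje-like cells it was higher at E9, at 920 and 1062 CPM, a log2 ratio of 0.21 (0.10 to 0.31). Notch genes had 0 of 16 past 1.5-fold and a median of -0.02.

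The thyroid hormone receptors differed in opposite directions. THRA read 18.0, 16.8 and 24.3 CPM in the E8 wells and 35.1, 32.9 and 51.6 CPM in the E9 wells, a log2 ratio of 1.05 (0.80 to 1.30). THRB read 130, 142 and 150 CPM at E8 and 68.8, 80.0 and 75.4 CPM at E9, a log2 ratio of -0.91 (-1.04 to -0.78). The wells of the stages did not overlap for either receptor. Within granule-lineage-like cells THRA stood at 33.7 CPM (23.7 to 46.4) and 83.9 CPM (72.0 to 97.2), and within radial-progenitor-like cells THRB stood at 428 CPM (400.0 to 458) and 248 CPM (225 to 273). Of the 13 measured genes of the list on thyroid hormone and retinoic acid, 2 (15.4%) were at least 1.5-fold higher. At least 1.5-fold lower were 2 (15.4%), RORB among them. Over all genes the shares were 8.87% higher and 1.73% lower.

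Neuronal lists were mixed, and their medians and sums could differ in sign because the most abundant members carried the sum. Of 31 synaptic vesicle genes 5 were at least 1.5-fold higher and 2 lower, with a median of 0.24 but a log2 ratio of the sums of -0.14. SYT1, the calcium sensor of release, was the most abundant, at 1691 and 1361 CPM, while the vesicle glycoprotein SV2B stood at 57.8 and 98.4 CPM, a log2 ratio of 0.77 that came to 0.27 with cluster shares held equal. Of 30 synaptic adhesion genes 3 were higher and 1 lower, with a median of -0.14. TENM2, a teneurin, was the lower one, at 3139, 2524 and 2870 CPM at E8 and 1737, 1512 and 1567 CPM at E9, a log2 ratio of -0.83 (-0.85 to -0.80) that came to -0.40 with cluster shares held equal. Of 34 glutamate, GABA and glycine receptor genes 1 was higher, GRIN1, the obligatory subunit of NMDA receptors, at 67.0 and 106 CPM, with a median of -0.03. Of 41 ion channel genes 4 were higher and 1 lower, with a median of 0.06 that fell below 0 under both other scalings. Shares at least 1.5-fold higher were 16.1% for vesicle, 10% for adhesion, 2.94% for receptor and 9.76% for channel genes, beside 8.87% of all genes. Shares lower were 6.45%, 3.33%, 0% and 2.44% in the same order, beside 1.73% of all genes.

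Guidance genes showed members in both directions. Of 27 Robo, Slit, netrin, UNC5 and Eph genes 3 were at least 1.5-fold higher and 1 lower, with a median of 0.07 and a log2 ratio of the sums of -0.18. EPHA8 was among the higher ones, and EFNA5, an ephrin-A ligand on Z, was the lower one, at 1161, 1094 and 913 CPM at E8 and 655, 669 and 660.0 CPM at E9. EFNA5 was lower at E9 in all 19 clusters with at least 20 cells per stage, and its log2 ratio of -0.68 was -0.52 in cells with no W-coupled UMI. The netrin receptor UNC5C, the most abundant member, stood at 3443 and 3433 CPM. Of 22 semaphorin, plexin and neuropilin genes 2 were higher and 1 lower, with a median of 0.01 and a log2 ratio of the sums of -0.05. Shares higher were 11.1% for the former list and 9.09% for the latter, near the 8.87% of all genes. Shares lower were 3.70% and 4.55%, beside 1.73% of all genes. Under both other scalings the medians of these lists were below 0. Of 16 genes of glial maturation 1 (6.25%) was higher, with a median of -0.05. Of 25 immediate early and stress genes 2 (8%) were higher and 0 lower, with a median of 0.17. Neither share was above the 8.87% of all genes.

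**Figure D4:**
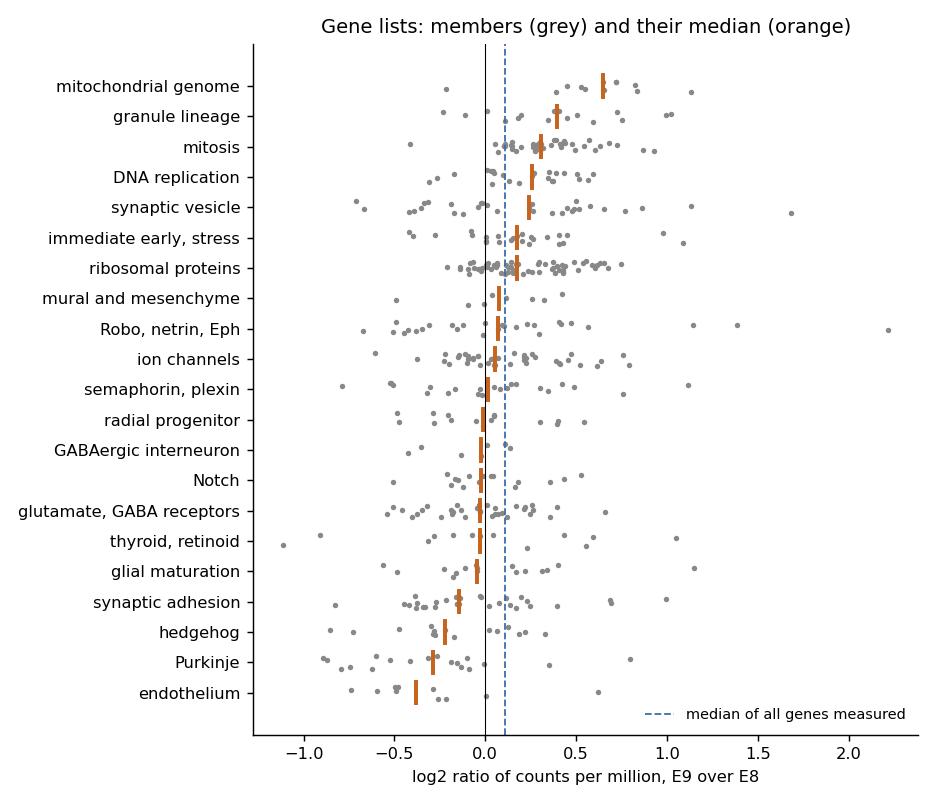
Log2 ratio of E9 over E8 for the measured members (grey points) of each gene list and the list's median (orange bar). The dashed line is the median of all genes, 0.11. Mitochondrial, granule lineage and mitosis genes have medians of 0.65, 0.39 and 0.30, to the right of it, and hedgehog, Purkinje and endothelial genes medians of -0.22, -0.29 and -0.38, to the left.

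Of 13 mitochondrial protein genes 8 (61.5%) were at least 1.5-fold higher, beside 8.87% of all genes, and 0 lower, with a median of 0.65. For 12 of them every E9 well lay above every E8 well, beside 20.9% of all genes. ND5, a subunit of complex I, read 710, 922 and 701 CPM at E8 and 1109, 1159 and 1117 CPM at E9. The summed level over all cells was 2744 CPM at E8 and 4184 CPM at E9, beside 3418 CPM at E6 and 4286 CPM at E7, so E8 was its lowest stage. By class the summed level was 1193 and 2569 CPM in Purkinje-like cells and 4861 and 6193 CPM in granule-lineage-like cells. It stood at 5701 and 6544 CPM in endothelium-like cells and at 6063 and 5921 CPM in microglia-like cells. Of 60 ribosomal protein genes 7 (11.7%) were higher, near the 8.87% of all genes, and 0 lower, with a median of 0.17.

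Short genes had higher ratios than long ones. Autosomal genes were split by length into 5 groups of equal size. Their median log2 ratios were 0.28 in the shortest group, 0.20, 0.13 and 0.06 in the next and -0.06 in the longest, which starts at 70495 bases. The longest group held 63.9% of autosomal UMIs at E8 (63.4% to 64.7% over wells) and 60.1% at E9 (59.6% to 61.2%), beside 60.1% at E6 and 56.2% at E7. The lower share at E9 was present within classes too, at 64.2% and 59.7% in granule-lineage-like cells, 73.4% and 70.3% in Purkinje-like cells and 60.1% and 57.0% in radial-progenitor-like cells, and the erythroid-like cells, 17 and 16 in number, were the exception at 37.4% and 42.8%. Among chromosomes the median was 0.04 on chromosome 1, where measured genes have a median length of 33868 bases, and 0.40 on chromosome 25, where it is 10494 bases. The part of length in the gene results was not tested. With the length trend removed, an alternative chosen after seeing the data, 22 genes were at least 2-fold higher and 2 lower, among 8589 genes with a length. These numbers are not to be set against 61 and 6 directly, because only 31 of the 61 and 4 of the 6 entries had a length. Of those, 17 and 2 were still called. Under this alternative the log2 ratio of FOXP2 was -0.37, that of EPHA8 2.28 and the median of the mitosis list 0.26, while the synaptic adhesion list turned to 0.11.

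**Figure D5:**
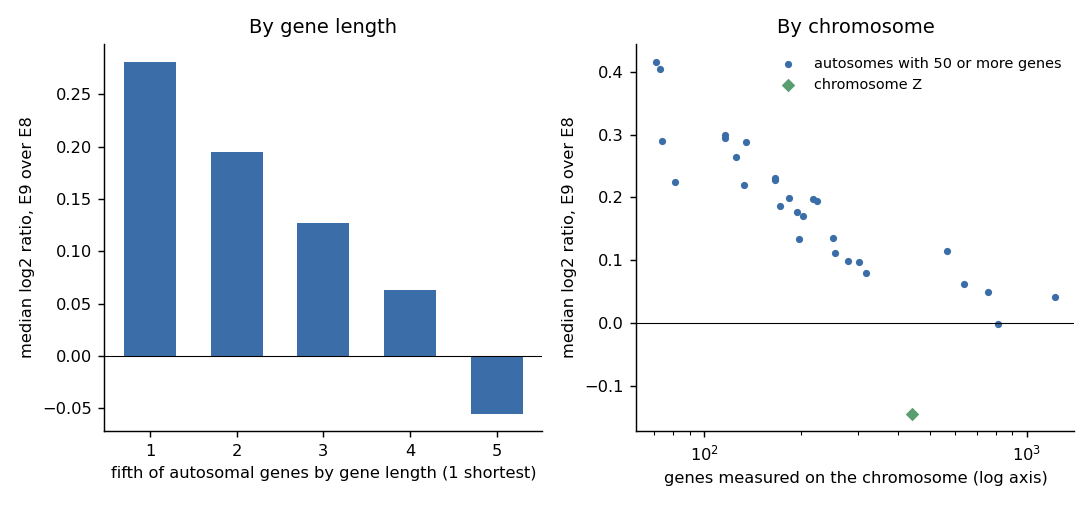
Median log2 ratio of E9 over E8 by length group of genes (left, bars from 0) and by chromosome against its number of measured genes (right, log axis). The bars fall from 0.28 to -0.06, autosomes with few genes have higher medians than those with many, and chromosome Z lies below every autosome shown at -0.14.

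Birds have ZW females and ZZ males, so transcripts of W mark cells of female embryos. UBAP2L2 and HNRNPKL, the W-linked copies of genes for a ubiquitin-associated protein and an RNA-binding protein, stood at 1.19 and 0.597 CPM at E8 and at 36.1 and 18.0 CPM at E9. NEDD4L is placed on W by its symbol but did not follow them, at 287 and 257 CPM. Cells with 5 or more W-coupled UMIs made up 2 of 2478 cells at E8 (0.0807%) and 623 of 2576 at E9 (24.2%, with 22.7% to 25.4% over wells), against 52.3% at E7 and 0.0402% at E6. Such cells were thus nearly missing at E8, and the sex of the embryos pooled is not given.

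Genes on Z were lower on the whole. Of 442 measured Z genes 27 (6.11%) were at least 1.5-fold lower and 14 (3.17%) higher, beside 1.73% and 8.87% of all genes. For 146 of them every E9 well lay below every E8 well, beside 9.92% of all genes. The median log2 ratio of the Z genes was -0.14 beside 0.12 on autosomes, a difference of -0.26. That difference came to -0.12 in cells with no W-coupled UMI (2102 cells at E8 and 1521 at E9). This alternative was chosen after the W levels had been seen, and cells of female embryos in which no such UMI was caught would pass it. Within E9, the median over 415 Z genes was -0.53 in the 623 cells with 5 or more W-coupled UMIs over the 1521 cells with none, beside 0.06 on autosomes. PAX5 stood at 58.0 CPM in the former and 92.1 CPM in the latter, RORB at 341 and 489 CPM, and EFNA5 at 433 and 729 CPM. For PAX5, RORB and EFNA5 alike the level of E9 cells without W-coupled UMIs was below that of every E8 well. What part the W difference has in these ratios was not tested.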

How the data were processed

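The authors deposited 1 table of UMI counts per cell and gene for the series with a cell table and a gene table, which were read through the cell table's stage and first-round well. The sum of the deposited counts equalled the cell table in 100% of cells. The submitters' processing notes name Cell Ranger, Seurat and GRCg7b without a role. The aligner was not given in the sources used here, nor was the calling of cells. Counts were summed over all cells of a stage and divided by all UMIs; the log2 ratio of E9 over E8 has an exact conditional binomial interval and each level an exact Poisson interval (95%). No cells were left out, although 197 had fewer than 1000 UMIs. Genes needed 100 UMIs over both stages; called genes also needed 2-fold and 20 CPM at the higher stage.

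Genes named were the 14 largest rises and the falls among genes with a symbol, not on W, mitochondrial or haemoglobin, with non-overlapping wells and 1 direction in both sublibraries, and from each list the most abundant and up to 3 of largest ratio with 20 CPM; LHX5, SHH, PTCH1 and those of the closing observations were added after their values were seen. The members and lists were chosen with earlier results of these data known. W-coupled entries were those at least 3-fold higher in the 3258 E7 cells with a UMI of HNRNPKL or UBAP2L2 than in the 4390 without, with 100 UMIs at E7. Coordinates and lengths are from RefSeq GRCg7b, matched by symbol for 12758 of 30108 genes.

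Clusters used 2000 variable genes, 30 components, 15 neighbours and Leiden resolution 1 (scanpy 1.11.5, leidenalg 0.10.2, igraph 0.11.9), and were named by where a cluster lies between the lowest and highest cluster over a list's markers, a score settled after clusters had been seen. The ratio code was tested on simulated data. The other tools were edgeR 4.0.16 for scaling factors, scipy 1.17.1, pandas 2.3.3, numpy 2.4.6 and Python 3.11.15.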

Additional observations from a re-analysis of the deposited data

How the results depend on the processing

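Of the values of lists and genes under the alternatives, 2079 lay within the range over pairs of wells (lists) or the counting interval (genes) and 503 outside. Another UMI minimum leaves the ratio of a gene as it is, and leaving out 1 well keeps most of the cells. The number within is therefore no measure of stability. Leaving out 1 well at a time gave 52 to 106 genes at least 2-fold higher and 5 to 11 lower, beside 61 and 6. Sublibrary 1 alone gave 96 and 17, and sublibrary 2 alone gave 18 lower. Scaling by trimmed mean of M values gave 12 lower and by median of ratios 11 lower, thinning each cell to 1000 UMIs 114 and 12, and a minimum of 500 UMIs 29 higher. Cells with no UMI of a W-linked gene by symbol, which NEDD4L reduced to 1065 and 1093, gave 96 and 28, and equal cluster shares gave 1 lower. Of the alternatives chosen after seeing the data, cells with no W-coupled UMI gave 15 lower and removal of the length trend 22 and 2. The latter covers only genes with a length, which 31 of the 61 higher and 4 of the 6 lower entries had.

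Of the 61 higher entries, 48 had 10 or more UMIs left in cells with no W-coupled UMI, and 35 of these were at least 2-fold higher. Under equal cluster shares 42 of the 61 were still called, and 36 of 55 named genes past 1.5-fold stayed past it. Among lists and genes at least 1.5-fold apart, those that changed direction were the erythroid median (0.11) and HBA1 (0.43) in sublibrary 2, CSF1R in thinned cells (-0.15), EMCN in cells with no UMI of a W-linked gene (0.10), and the median of genes placed on W at a minimum of 500 UMIs (-0.16) and in cells with no W-coupled UMI (-0.066), where NEDD4L carries it. Of those under 1.5-fold, 17 of 25 list medians and 19 of 54 genes changed sign in at least 1 alternative, so their signs carry little. The cause was not tested. No paired analysis was possible because the labels give 1 group and the wells of the stages share no embryos by label. Depth limits genes under 20 CPM, which have few UMIs per well.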

Other observations

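Beyond the 14 largest rises, other genes with non-overlapping wells also passed 2-fold, and the following were picked after their values were seen. KIFC1, a minus-end kinesin of the spindle, stood at 26.0 CPM at E8 and 56.5 CPM at E9, a log2 ratio of 1.12 (0.91 to 1.34). IGSF9B, an adhesion molecule of inhibitory synapses, stood at 26.4 and 57.5 CPM, and SDK2, a sidekick adhesion molecule known from synaptic layers of the retina, at 58.6 and 123 CPM. KCNK3, a leak potassium channel known from mammalian granule cells, stood at 11.8 and 25.3 CPM.

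Several genes of the lists differed by about 2-fold or more at levels under 20 CPM, outside the rule for naming. NTNG2, a membrane-anchored netrin of glutamatergic synapses, stood at 5.77 and 15.1 CPM, a log2 ratio of 1.39 (0.94 to 1.85), and NTN3, a netrin, at 7.76 and 17.1 CPM. NFIX, a nuclear factor of granule cell and glial maturation in mice, stood at 7.06 and 15.7 CPM. CDC20, an activator of the anaphase-promoting complex, stood at 5.07 and 9.67 CPM, just short of 2-fold. For each of these 4 genes every E9 well lay above every E8 well, as for 20.9% of all genes measured.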
